A study of Mus musculus with 8 samples.

Results

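Inflammasomes are protein platforms that sense microbial or danger signals inside a cell, and pyroptosis is the lytic cell death that follows when they are engaged. Described here are 9 mouse genes of this pathway, given by their symbols: the sensors Nlrp3, Nlrc4 and Aim2, the adaptor Pycard, the caspases Casp1 and Casp4, the membrane effectors Gsdmd and Ninj1, and the cytokine Il18. The symbols were matched to the Ensembl identifiers of the count files through the mouse gene annotation. All 9 were found among the 55416 gene identifiers, and all 9 were among the 18560 genes that passed the expression filter. The lowest count of any of the 9 in any library was 22, for Nlrc4 in LPS mouse 1.

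In the canonical pathway a sensor joins the adaptor ASC, the product of Pycard, and recruits caspase-1, which matures interleukin-18 and interleukin-1β and cleaves gasdermin D. The released part of gasdermin D forms pores in the plasma membrane, and ninjurin-1 then tears the membrane open. In mice the product of Casp4, also known as caspase-11, binds LPS in the cytosol and cleaves gasdermin D directly, a non-canonical route known for its part in endotoxic shock. These proteins are controlled largely by cleavage and assembly, and only their RNA was measured here.

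Lung RNA was sequenced from 8 mice in 3 groups to compare endotoxin injury with and without YW3-56, an inhibitor of protein arginine deiminases. The labels give strain C57BL/6 for all mice, and the methods describe C57BL/6J females 6 to 8 weeks old. The control group (mice 1, 2 and 4) received the solvent DMSO by vein and then saline into the peritoneal cavity. The LPS group (mice 1, 6 and 7) received LPS at 35 mg/kg into the peritoneal cavity. The dual-treatment group (mice 2 and 5) received YW3-56 at 10 mg/kg, dissolved in DMSO, 30 min before the same dose of LPS. Lungs were taken at about 24 h. The methods describe DMSO for the control and dual-treatment groups and not for the LPS group. In comparisons with the LPS group, a part of the solvent can therefore not be told apart. The labels hold 2 dual-treated mice, and both were analysed. Control libraries held 19061949, 19796242 and 20527836 counts, LPS libraries 20818501, 19379911 and 19279724, and dual-treatment libraries 19875939 and 20908608. Levels are given as CPM, the counts scaled to a common library total, after TMM normalization, in the order of mice just named. Each library is 1 mouse, so the spread is that between mice. With 3 mice against 3, or 3 against 2, the smallest p of an exact permutation test is 0.1, so the tests come from 1 edgeR quasi-likelihood fit of all 18560 genes over the 8 libraries with Benjamini-Hochberg adjustment, and a gene was called at an adjusted p under 0.05.

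All 8 libraries carried lung RNA: the alveolar type 2 marker Sftpc lay between 8322 and 24536 CPM, and the club cell marker Scgb1a1 between 22675 and 65313 CPM. LPS mice 6 and 7 stood apart from the other libraries in genes of squamous epithelium and skeletal muscle. The summed CPM of 12 squamous genes reached 849 (mouse 6) and 2206 (mouse 7), against 36.7 in LPS mouse 1 and 41.7 to 81.6 in the other 5 mice, and its most abundant gene Krt13 reached 286 and 887 CPM. The summed CPM of 10 skeletal muscle genes was 547 and 1282 in the same 2 mice, against 53.2 in LPS mouse 1 and 15.0 to 71.1 in the other 5 mice. For the 9 genes, the counts of called genes that involve the LPS group are therefore also given with LPS mouse 1 alone, and single named genes that lost a call there are pointed out. In that setting 1 library stands for the LPS group and its spread is taken from the control and dual-treated mice, so its values show where mouse 1 lay and its calls say little of how far they would hold in other mice. Levels and other counts that involve the LPS group rest on all 3 LPS mice.

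Markers of blood and lung cells also moved with the groups. Of all tested genes, 32.6% were called higher and 33.9% lower in LPS than in control lungs, 31.7% higher and 27.4% lower in dual-treated than in LPS lungs, and 9.13% higher and 7.02% lower in dual-treated than in control lungs, and the counts below are to be read against these shares. All 14 neutrophil markers were higher in LPS than in control lungs, 4 were higher and 6 lower in dual-treated than in LPS lungs, and 9 were higher in dual-treated lungs than in control lungs. Left without 1 marker that passed the filter through the LPS group alone, these counts are 13 of 13 higher after LPS, and 4 higher and 5 lower of 13 for dual treatment against LPS. Their summed CPM was 352, 279 and 200 in control, 2837, 3717 and 2552 in LPS and 2103 and 2601 in dual-treated lungs, with S100a9 the most abundant on average and none of the 14 at 0. Of 11 monocyte and macrophage markers, 9 were higher in dual-treated lungs than in LPS lungs, 9 were higher in dual-treated lungs than in control lungs, and 2 were higher and 4 lower in LPS than in control lungs. Their summed CPM was 352, 283 and 357 in control, 361, 354 and 264 in LPS and 959 and 1043 in dual-treated lungs, with Csf1r the most abundant and none at 0. Of 8 alveolar macrophage markers, 3 were higher and 1 lower in dual-treated than in LPS lungs, and their summed CPM was 828, 612 and 770 in control, 878, 961 and 511 in LPS and 978 and 1547 in dual-treated lungs, with Chil3 the most abundant. Of 6 dendritic cell markers, 4 were lower in LPS than in control lungs, 1 was higher and 2 lower in dual-treated than in LPS lungs, and 4 were lower in dual-treated than in control lungs (4 of 5 for the first and 3 of 5 for the last without a marker that passed the filter through the control group alone). Their summed CPM was 78.6, 71.3 and 74.6 in control, 4.45, 3.35 and 3.46 in LPS and 30.2 and 31.5 in dual-treated lungs, with Clec9a the most abundant on average, and Cd209a and Siglech were at 0 in dual-treated mouse 2. Of 8 lymphocyte markers, 4 were lower in LPS than in control lungs and 4 higher with the dual treatment than with LPS (3 of 7 without a marker that passed the filter through the dual-treatment group alone), and their summed CPM was 32.4, 34.4 and 32.3 in control, 16.9, 17.5 and 10.8 in LPS and 54.0 and 25.8 in dual-treated lungs, with Cd79a the most abundant. Of 5 club and ciliated airway markers, 3 were higher and 2 lower after LPS and 3 were lower with the dual treatment than with LPS, and their summed CPM, nearly all Scgb1a1, was 30918, 39259 and 36585 in control, 67482, 57080 and 55720 in LPS and 23900 and 26611 in dual-treated lungs. Of 5 alveolar type 1 markers, 2 were lower after LPS, 2 were higher and 1 lower with the dual treatment than with LPS, and 2 were lower than in control. After LPS 6 of 7 alveolar type 2 markers, of which 3 were higher with the dual treatment than with LPS, and 4 of 6 endothelial markers were lower than in control, and 4 of these 6 endothelial markers were higher with the dual treatment than with LPS. All 6 erythroid markers were called lower in dual-treated lungs than in both other groups, with a median log2FC of -2.40 against LPS and -2.75 against control, while LPS against control gave a median of -0.28 and 0 of 6 calls by edgeR or DESeq2, also at an unadjusted p under 0.05. In bulk lung RNA, more or fewer cells of a type and more or less RNA per cell cannot be told apart. The part of these cell markers in the changes of the inflammasome genes was not tested.

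**Figure D1:**
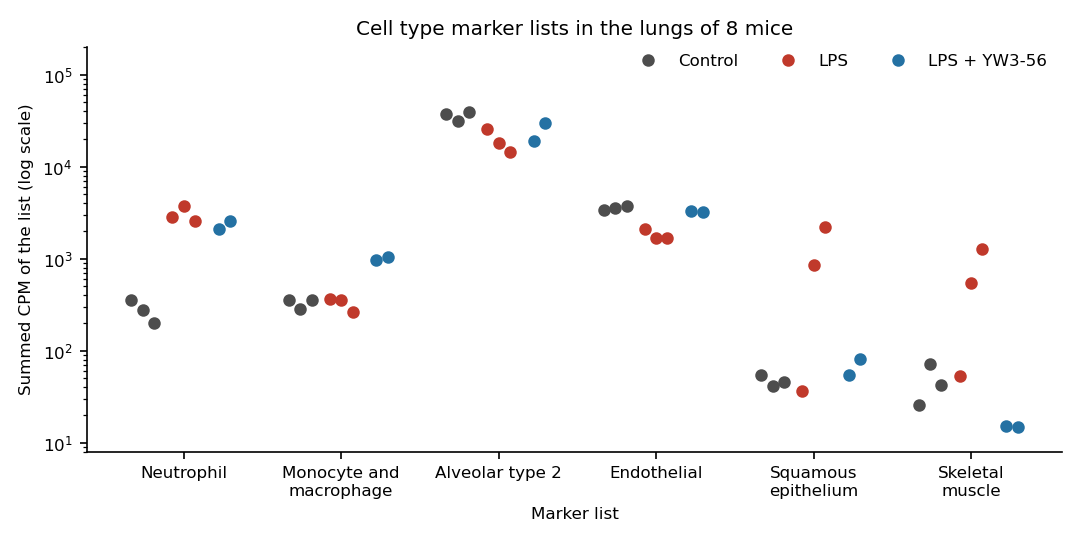
Summed CPM of 6 cell type marker lists, on a log axis, with 1 point per mouse in the control, LPS and dual-treatment groups. LPS mice 6 and 7 lie far above the other libraries in squamous epithelium (849 and 2206 CPM) and skeletal muscle (547 and 1282 CPM), and both dual-treated mice lie above the other 6 in monocyte and macrophage markers (959 and 1043 CPM).

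After LPS alone, most of the pathway was higher than in control lungs. Nlrp3, Aim2, Pycard, Casp1, Casp4 and Ninj1 rose, so 6 of 9 genes were called higher, against 32.6% of all tested genes, and Il18 fell, so 1 of 9 was called lower, against 33.9% of all tested genes. In 6 genes all LPS mice lay above all control mice, as in 34.7% of all tested genes, and in 2 genes, Il18 and Nlrc4, all lay below, as in 37.3%. The median log2FC of the 9 genes was 1.46, against -0.01 over all tested genes. The 9 genes and the other lists were chosen with earlier results of these data known. Their counts beside the shares of all genes are therefore a description and no test of the pathway. With LPS mouse 1 alone the same 6 genes were called higher, as were 5222 of 19272 genes tested in that setting, and Il18 lost its call (log2FC -0.45, adjusted p = 0.227 by the Benjamini-Hochberg adjusted quasi-likelihood test of edgeR), as it did without control mouse 1 (-0.59), control mouse 4 (-0.58) or LPS mouse 6 (-0.59).

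Between dual-treated and LPS lungs the 9 genes split. Nlrp3, Aim2, Casp1, Casp4 and Ninj1, 5 of the 6 genes that LPS had raised, were lower in dual-treated than in LPS lungs, against 27.4% of all tested genes called lower. The 6 were picked by their high values in the LPS group, which both comparisons share, and of all 6046 genes called higher after LPS 72.3% were likewise called lower with the dual treatment and 2.58%, as Pycard, higher. Pycard, Nlrc4, Gsdmd and Il18 were higher, against 31.7% of all tested genes called higher. No gene overlapped between these groups: 4 had both dual-treated mice above all LPS mice, as in 37.9% of all tested genes, and 5 had both below, as in 32.9%. The median log2FC was -0.51, against 0.06 over all tested genes. With LPS mouse 1 alone, 3 of 9 genes were called higher and 3 lower, against 4996 and 4464 of the 19272 genes tested in that setting, and the calls of Aim2 (log2FC -0.59, adjusted p = 0.116), Casp1 (-0.47, adjusted p = 0.154) and Il18 (0.71, adjusted p = 0.0937) were lost in the same edgeR test with Benjamini-Hochberg adjustment. Without dual-treated mouse 2 the genes called lower fell from 5 to 2, Casp4 and Ninj1.

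Dual-treated lungs were above control lungs in most of the genes. Nlrp3, Aim2, Pycard, Casp1, Casp4, Gsdmd and Ninj1 were called higher, 7 of 9 against 9.13% of all tested genes, and 0 of 9 were called lower by edgeR or by DESeq2, against 7.02% of all tested genes by edgeR; all 9 fitted changes were above 0. In 8 of 9 genes both dual-treated mice lay above all control mice, as in 26.1% of all tested genes, and in 0 of 9 both lay below, as in 26.2%. The median log2FC was 0.88, against 0.004 over all tested genes. As the 9 genes were chosen with earlier results of these data known, these counts do not test the pathway against other genes. The count of genes called higher fell from 7 to 6 without control mouse 1, to 5 without control mouse 2, control mouse 4 or dual-treated mouse 5, and to 4 without dual-treated mouse 2. Of all tested genes, 1695 were called higher with every mouse, 1088, 973 and 977 without control mouse 1, 2 or 4, and 790 and 1700 without dual-treated mouse 2 or 5. The 3 comparisons share their mice, so they are not independent of each other. Scaling by library size alone, in place of TMM, moved the share of higher genes among all called genes from 49.0% to 35.6% for LPS against control and from 53.6% to 71.0% for dual treatment against LPS, and it is mentioned with each of the 9 genes whose call it changed.

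**Figure D2:**
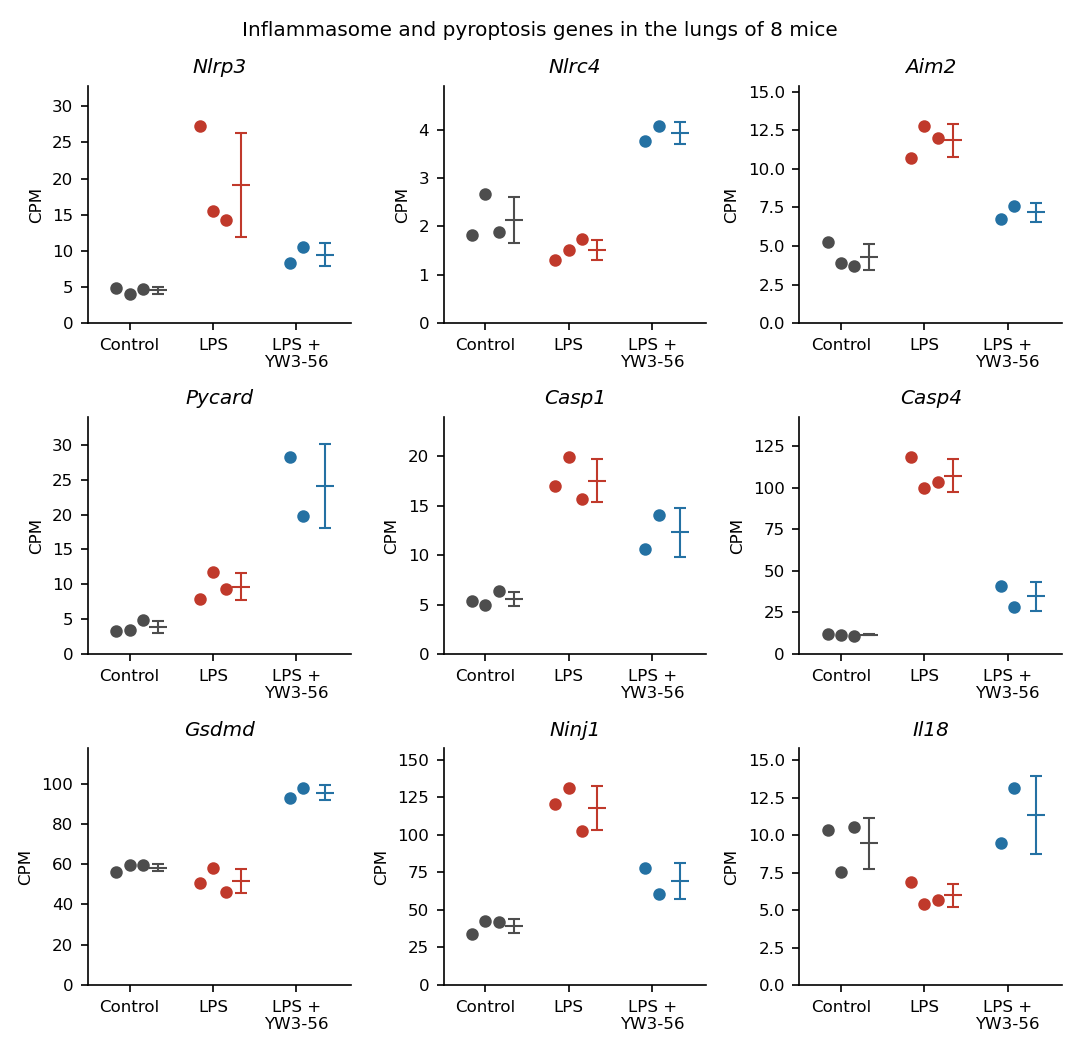
TMM-normalized CPM of the 9 genes on linear axes from 0, with 1 point per mouse (3 control, 3 LPS, 2 dual-treated) and the mean and SD of each group beside the points. Casp4 and Ninj1 are highest in LPS lungs with dual-treated lungs in between, whereas Pycard, Gsdmd and Nlrc4 are highest in dual-treated lungs.

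Nlrp3, the sensor that responds to potassium efflux and membrane stress, stood at 4.89, 3.99 and 4.69 CPM in control lungs, 27.4, 15.5 and 14.3 CPM in LPS lungs, and 8.35 and 10.6 CPM in dual-treated lungs. The 3 groups did not overlap, and LPS mouse 1 lay well above the other LPS mice. Nlrp3 rose 4.21-fold after LPS (log2FC 2.07 ± 0.26 SE), was lower in dual-treated than in LPS lungs (-1.01 ± 0.28) and stayed above control (1.06 ± 0.28), with adjusted p = 8.85e-05, 0.0128 and 0.0321 by the Benjamini-Hochberg adjusted quasi-likelihood test of edgeR. With LPS mouse 1 alone the first 2 differences were 2.60 and -1.54 on the log2 scale, and without that mouse they were 1.73 and -0.66, both still called. The call against LPS was lost without dual-treated mouse 2 (-0.87), at adjusted p = 0.0675, and the call of the dual treatment against control was lost without any 1 of the control or dual-treated mice (log2FC 0.85 to 1.19), at adjusted p = 0.0698 to 0.124, in the same edgeR test with Benjamini-Hochberg adjustment.

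Aim2, a sensor of double-stranded DNA in the cytosol, had 5.28, 3.90 and 3.72 CPM in control, 10.7, 12.8 and 12.0 CPM in LPS and 6.76 and 7.60 CPM in dual-treated lungs. As for Nlrp3, the groups lay in the order control, dual treatment, LPS without overlap, with less spread inside the LPS group. Aim2 rose 2.76-fold after LPS (log2FC 1.46 ± 0.19 SE), was lower with the dual treatment than with LPS (-0.72 ± 0.21) and remained above control (0.74 ± 0.21), with adjusted p = 1.05e-04, 0.0142 and 0.0397 by the Benjamini-Hochberg adjusted quasi-likelihood test of edgeR. The difference from LPS lost its call with scaling by library size alone (-0.40, adjusted p = 0.152) and without dual-treated mouse 2 (-0.67, adjusted p = 0.0701), and that from control without control mouse 2 or 4 or either dual-treated mouse (0.62 to 0.79, adjusted p = 0.123 to 0.153), in the same edgeR test with Benjamini-Hochberg adjustment.

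Nlrc4 encodes the sensor that, through NAIP proteins, responds to bacterial flagellin and secretion systems. It stood at 1.81, 2.68 and 1.89 CPM in control, 1.31, 1.50 and 1.73 CPM in LPS and 3.77 and 4.08 CPM in dual-treated lungs. Unlike Nlrp3 and Aim2, it was highest in both dual-treated mice, and the LPS mice lay just below the control mice. Nlrc4 was 2.59-fold higher in dual-treated lungs than in LPS lungs (log2FC 1.37 ± 0.29 SE, adjusted p = 0.00303), while the differences of LPS from control (-0.49 ± 0.27, adjusted p = 0.141) and of dual treatment from control (0.88 ± 0.29, adjusted p = 0.0651) did not pass the Benjamini-Hochberg adjusted quasi-likelihood test of edgeR. They passed it, respectively, with scaling by library size alone (-0.77, adjusted p = 0.0402), a setting in which the median of all genes itself moved to -0.29, and when a filter of 10 or more counts per library was used (0.89, adjusted p = 0.0341). The exons of Nlrc4 share 867 bp with Slc30a6 on the other strand, and the strand setting of the counting is not given in the sources used here, so reads of the pair cannot be told apart there. Slc30a6 averaged 13.6 CPM in control, 8.86 CPM in LPS and 16.6 CPM in dual-treated lungs, and its part in the Nlrc4 values was not tested.

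Pycard, which encodes the adaptor ASC, stood at 3.28, 3.43 and 4.87 CPM in control, 7.89, 11.7 and 9.32 CPM in LPS and 28.3 and 19.8 CPM in dual-treated lungs. It was the gene of the 9 with a step up in both comparisons, as every LPS mouse lay above every control mouse and both dual-treated mice lay above every LPS mouse. The rise was 2.50-fold from control to LPS (log2FC 1.32 ± 0.23 SE), 2.50-fold from LPS to dual treatment (1.32 ± 0.24) and 6.23-fold from control to dual treatment (2.64 ± 0.25), with adjusted p = 7.72e-04, 0.00127 and 2.14e-04 by the Benjamini-Hochberg adjusted quasi-likelihood test of edgeR. No alternative setting or omission of a mouse ended a Pycard call, and with LPS mouse 1 alone the first 2 values were 1.03 and 1.60. Its exons share 485 bp with the antisense gene Gm45205, which was highest in LPS lungs, at a mean of 1.19 CPM against 0.0929 CPM in control. The part of Gm45205 in the Pycard values was not tested.

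Casp1, the caspase that matures interleukin-18, had 5.33, 4.97 and 6.35 CPM in control, 17.0, 20.0 and 15.7 CPM in LPS and 10.6 and 14.0 CPM in dual-treated lungs. The dual-treated mice lay between the other groups and did not overlap with either. Casp1 rose 3.16-fold after LPS (log2FC 1.66 ± 0.18 SE), was lower with the dual treatment than with LPS (-0.51 ± 0.19) and higher than in control (1.15 ± 0.19), with adjusted p = 3.19e-05, 0.0443 and 0.00424 by the Benjamini-Hochberg adjusted quasi-likelihood test of edgeR. The small difference between dual treatment and LPS was the least firm of the 9: its call was lost with scaling by library size alone (-0.19, adjusted p = 0.438), with no filter on low counts (-0.48, adjusted p = 0.0792), with only those 2 groups in the fit (-0.53, adjusted p = 0.068) and without LPS mouse 1 (-0.54, adjusted p = 0.0604), LPS mouse 6 (-0.41, adjusted p = 0.123) or dual-treated mouse 2 (-0.35, adjusted p = 0.241), in edgeR with Benjamini-Hochberg adjustment. The exons of Casp1 share 110 bp with the antisense gene Gm67740, whose part in these values was not tested.

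Casp4, the sensor caspase for cytosolic LPS, had the largest fold change of the 9 genes, with 12.1, 11.7 and 11.1 CPM in control, 119, 100 and 103 CPM in LPS and 41.0 and 28.3 CPM in dual-treated lungs. Each LPS mouse lay far above each dual-treated mouse, and each dual-treated mouse above each control mouse. Casp4 rose 9.22-fold after LPS (log2FC 3.21 ± 0.15 SE), and dual-treated lungs were lower than LPS lungs (-1.63 ± 0.16) and 2.98-fold above control (1.57 ± 0.16), with adjusted p = 5.54e-07, 3.63e-05 and 2.72e-04 by the Benjamini-Hochberg adjusted quasi-likelihood test of edgeR. No alternative or omission of a mouse ended these calls, and with LPS mouse 1 alone the first 2 values were 3.36 and -1.78. Casp1 and Casp4 are neighbours on the same strand of chromosome 9, at chr9:5298508-5307290 and chr9:5308828-5336783 (GRCm39).

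Gsdmd, the pore-forming substrate of both caspases, was at 56.1, 59.5 and 59.5 CPM in control, 50.8, 58.0 and 46.1 CPM in LPS and 93.0 and 98.1 CPM in dual-treated lungs. LPS and control mice overlapped, and both dual-treated mice lay clearly above all 6 others. Gsdmd was 1.85-fold higher in dual-treated lungs than in LPS lungs (log2FC 0.89 ± 0.11 SE) and 1.64-fold higher than in control (0.71 ± 0.11), with adjusted p = 1.21e-04 and 0.00263, whereas LPS and control lungs did not differ past the threshold (-0.18 ± 0.10, adjusted p = 0.142) by the Benjamini-Hochberg adjusted quasi-likelihood test of edgeR. The last of these was called lower when scaled by library size alone (-0.46, adjusted p = 0.00299) and without LPS mouse 6 (-0.26, adjusted p = 0.0378) in the same edgeR test with Benjamini-Hochberg adjustment. No alternative setting of the test or omission of a mouse ended the rise with the dual treatment, apart from the rule of a fold over 2, which a 1.85-fold difference cannot pass. The exons of Gsdmd share 283 bp with the antisense gene Gm62577, whose part in these values was not tested.

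Ninj1, whose product ruptures the plasma membrane after the pores have formed, had 34.1, 42.5 and 41.8 CPM in control, 120, 132 and 102 CPM in LPS and 77.6 and 60.8 CPM in dual-treated lungs. The groups did not overlap, and the dual-treated mice lay in the middle. Ninj1 rose 2.99-fold after LPS (log2FC 1.58 ± 0.14 SE), was lower with the dual treatment than with LPS (-0.77 ± 0.16) and 1.75-fold above control (0.81 ± 0.15), with adjusted p = 9.94e-06, 0.00223 and 0.00724 by the Benjamini-Hochberg adjusted quasi-likelihood test of edgeR. The call against control was lost without dual-treated mouse 2 (0.59, adjusted p = 0.0826, edgeR with Benjamini-Hochberg adjustment). Of the pair that acts at the membrane, Ninj1 and not Gsdmd was called higher after LPS, and the difference between their responses was not tested.

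Il18, the cytokine that caspase-1 releases in mature form, had 10.3, 7.51 and 10.5 CPM in control, 6.88, 5.43 and 5.64 CPM in LPS and 9.48 and 13.2 CPM in dual-treated lungs. The LPS mice were the lowest 3 of the 8, and the dual-treated mice overlapped with the control mice. Il18 was lower in LPS than in control lungs (log2FC -0.66 ± 0.21 SE, adjusted p = 0.018) and 1.89-fold higher in dual-treated lungs than in LPS lungs (0.92 ± 0.23, adjusted p = 0.00649), and did not differ past the threshold between dual treatment and control (0.26 ± 0.22, adjusted p = 0.479) by the Benjamini-Hochberg adjusted quasi-likelihood test of edgeR. The call after LPS was lost without control mouse 1 (-0.59, adjusted p = 0.0611), control mouse 4 (-0.58, adjusted p = 0.0652) or LPS mouse 6 (-0.59, adjusted p = 0.0594), and the call of the dual treatment against LPS without dual-treated mouse 5 (0.64, adjusted p = 0.0737), in edgeR with Benjamini-Hochberg adjustment.

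**Figure D3:**
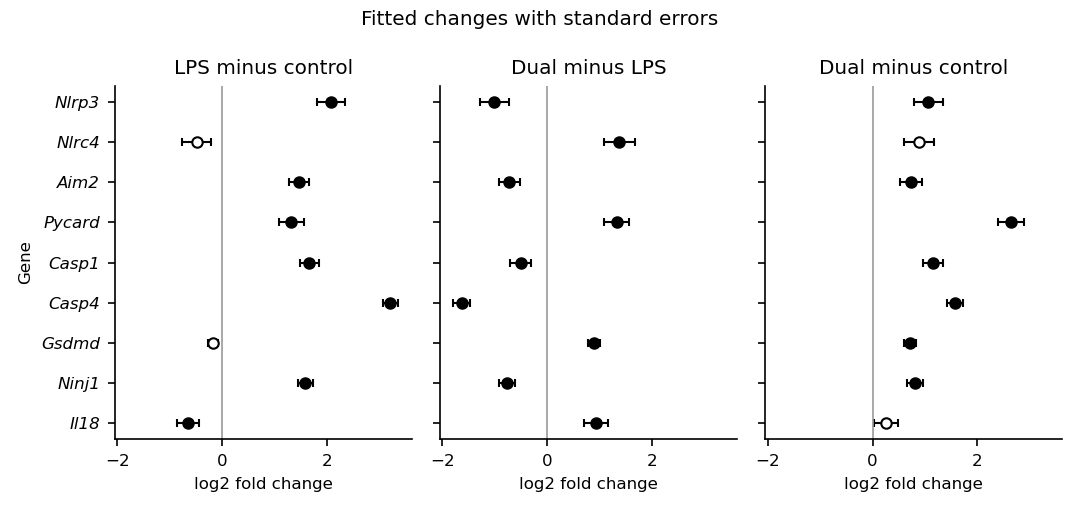
Fitted log2 fold changes of the 9 genes in the 3 comparisons, with bars of 1 SE from the edgeR fit; filled points were called at an adjusted p under 0.05 and open points were not. Casp4 lies at 3.21 after LPS and at -1.63 for dual treatment minus LPS, while Pycard lies at 1.32 in both.

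To compare levels between genes, CPM was divided by the length of the union of annotated exons in kilobases. On this scale of level per length, control lungs were led by Gsdmd (19.4 ± 0.65 SD, n = 3) and Ninj1 (14.8 ± 1.74), which did not overlap, followed by Il18 (3.14 ± 0.56), Casp4 (2.22 ± 0.09) and Casp1 (1.77 ± 0.23), also without overlap. At the low end of this scale lay Nlrp3 (1.12 ± 0.12), Pycard (0.911 ± 0.208), Aim2 (0.654 ± 0.130) and Nlrc4 (0.439 ± 0.099); Nlrp3 and Pycard overlapped, as did Pycard and Aim2. In LPS lungs the level per length was highest for Ninj1 (44.3 ± 5.54 SD, n = 3), followed by Casp4 (20.4 ± 1.91) and Gsdmd (17.2 ± 1.99), which overlapped. Casp1 (5.59 ± 0.70) and Nlrp3 (4.70 ± 1.78) overlapped next in that order of level per length, then Pycard (2.28 ± 0.46) with Il18 (1.99 ± 0.26) and Il18 with Aim2 (1.80 ± 0.16), and Nlrc4 came last (0.313 ± 0.044). Casp4 thus moved from rank 4 to rank 2 on this scale and Il18 from rank 3 to rank 7. In dual-treated lungs Gsdmd (31.8 ± 1.20 SD, n = 2) again led the level per length, above Ninj1 (26.0 ± 4.47), and Pycard (5.69 ± 1.41) stood at rank 4 and overlapped with Casp4 (6.60 ± 1.71). Casp1 (3.93 ± 0.78) and Il18 (3.76 ± 0.87) overlapped, and Nlrp3 (2.33 ± 0.39), Aim2 (1.09 ± 0.09) and Nlrc4 (0.812 ± 0.046) followed on the same scale without overlap. These levels depend on the transcript length assumed: with the annotation's canonical transcript, chosen after seeing the data, the level per length in LPS lungs was 74.5 for Casp4, 85.8 for Ninj1 and 26.1 for Gsdmd. Ninj1 and Casp4 led LPS lungs and Nlrc4 came last in each group with union exons, longest transcripts and canonical transcripts, while the lead in dual-treated lungs passed from Gsdmd to Ninj1 with the canonical ones. In dual-treated lungs Gsdmd (47.1 to 49.7) and Ninj1 (44.2 to 56.4) overlapped with canonical transcripts. They also overlapped with the longest transcripts (40.7 to 43.0 and 34.6 to 44.2). Other ranks moved too: Pycard in dual-treated lungs stood at rank 5 with the longest and rank 6 with the canonical transcript, Il18 in LPS lungs at rank 6 with the longest, and Casp4 and Il18 in control lungs at ranks 3 and 4 with the canonical one. With both of these lengths Il18 in dual-treated lungs went from rank 6 to 4, and Pycard in LPS lungs from rank 6 to 8. Aim2 moved as well: its level per length in LPS lungs went from 1.80 to 3.42 with the longest and 5.70 with the canonical transcript, from rank 8 to 7 and 5, and in control lungs it stood at rank 6 with both.

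The pattern of each gene over the 8 mice was compared with that of the other tested genes with a mean of at least 5 CPM, by the root mean square difference of log2 CPM after centring. The genes most like Nlrp3 were Tubb6 (0.150), Bbln (0.187) and Lmnb1 (0.200). Those most like Aim2 were Hddc2 (0.101), Hmgb2 (0.147) and Ptprj (0.150), and those most like Nlrc4 were Ehbp1l1 (0.138), Cit (0.167) and Ppcdc (0.188). For Pycard they were Acp5 (0.183), F10 (0.188) and Dok2 (0.253), the widest distances of the 9. For Casp1 they were Rassf5 (0.0903), Prdx5 (0.142) and Cyrib (0.143), and for Casp4 Tnip1 (0.134), Rtp4 (0.140) and Depp1 (0.147). Gsdmd had the closest neighbours, among them Prr15 (0.0568) and Gpx3 (0.0824). For Ninj1 they were Phgdh (0.0951), Gtf2f2 (0.126) and Psmd14 (0.139), and for Il18 Fam114a1 (0.134), Cenpx (0.144) and Dcps (0.148). None of the 9 genes was among the 3 nearest of another, which Nlrc4 could not have been, with a mean of 2.34 CPM.

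Beyond these 9 genes, 62 further symbols of the pathway were listed by role, of which 60 were matched and 53 tested. After LPS 35 of 53 were called higher and 6 lower, against 32.6% and 33.9% of all tested genes, and their median log2FC was 0.82, against -0.01 over all tested genes. Dual-treated lungs had 16 higher and 31 lower than LPS lungs, against 31.7% and 27.4% of all tested genes, with a median of -0.59 against 0.06. They had 21 higher and 1 lower than control lungs, against 9.13% and 7.02%, with a median of 0.54 against 0.004. The first 2 comparisons share the LPS mice. The wider lists were also chosen with earlier results of these data known, so the shares beside their counts serve as description only. Of the 35 wider genes called higher after LPS, 30 were called lower with the dual treatment, as were 72.3% of all 6046 genes called higher after LPS. With LPS mouse 1 alone 51 of the wider genes were tested. Their counts of called genes are not given, as 1 library does not show the spread of the LPS group. Nlrp6, Gsdma, Gsdmc, Gsdmc4 and Ifng passed the filter through the LPS group alone and Nlrp1a through the dual-treatment group alone, so their direction against other groups was set by the filter. With the genes of this kind left out of each comparison, an alternative chosen after seeing the data, 30 of 48 were higher and 6 lower after LPS (31.6% and 35.2% of all genes kept), 15 of 47 were higher and 26 lower in dual-treated lungs than in LPS lungs (33.1% and 26.1%), and 20 of 52 were higher and 1 lower than in control (9.37% and 7.26%). With all 53 genes, in the last comparison the 21 fell to 14 without control mouse 1, to 12 without control mouse 2 or 4, to 16 without dual-treated mouse 5 and to 10 without dual-treated mouse 2. The exons of several of these genes overlap genes on the other strand, and for them the unknown strand setting leaves the same doubt as for Nlrc4.

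Among the other sensors and their receptors, 3 of 10 were called higher and 1 lower after LPS, against 32.6% and 33.9% of all tested genes, whereas 8 of 10 were higher and 1 lower in dual-treated than in LPS lungs, against 31.7% and 27.4%, and 7 of 10 were higher than in control, against 9.13%. Nlrp6 passed the filter through the LPS group alone and Nlrp1a through the dual-treatment group alone. Without Nlrp6, 2 of 9 were higher and 1 lower after LPS (31.6% and 35.2% of all genes kept). Without both, 7 of 8 were higher and 0 lower in dual-treated lungs than in LPS lungs (33.1% and 26.1%). Without Nlrp1a, 6 of 9 were higher in dual-treated lungs than in control (9.37%). Mefv, which encodes the sensor pyrin, averaged 1.12 CPM in control, 8.29 CPM in LPS and 15.9 CPM in dual-treated lungs, a log2FC of 2.88 ± 0.20 SE after LPS and of 3.82 ± 0.21 for dual treatment against control. The flagellin and needle receptors that act through Nlrc4 were also highest in the dual-treated mice: Naip2 averaged 5.13, 7.69 and 16.9 CPM, Naip5 7.63, 7.40 and 15.2 CPM and Naip6 4.46, 5.25 and 9.57 CPM in control, LPS and dual-treated lungs. The Naip genes are closely related copies whose reads the counting could split, so their single values are uncertain. The rise of Naip2 after LPS (log2FC 0.58) was lost without LPS mouse 6 (0.38), control mouse 1 (0.57) or control mouse 2 (0.48), with LPS mouse 1 alone (0.23) and with scaling by library size alone (0.31), and that of Naip6 against control (1.10) without dual-treated mouse 5 (0.87). Nlrp12 averaged 0.731, 0.445 and 3.64 CPM, and its rise against control (log2FC 2.31) was lost without control mouse 2 (2.11), control mouse 4 (2.12) or dual-treated mouse 5 (1.76). The 1 sensor called lower after LPS was Nlrp1b, which falls outside the rule for named genes because of its mean and was named after its values were seen, at 1.14, 0.174 and 1.66 CPM in control, LPS and dual-treated lungs. Nlrp6, a sensor known from epithelium, had 4, 8 and 12 counts in control, 72, 22 and 34 counts in LPS and 3 and 1 counts in dual-treated lungs. Its direction was set by the filter, which it passed through the LPS group alone.

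Of the genes that act upstream of the sensors, 7 of 11 were called higher and 3 lower after LPS, against 32.6% and 33.9% of all tested genes, and 3 were higher and 7 lower in dual-treated than in LPS lungs, against 31.7% and 27.4%. The guanylate-binding protein genes, whose products expose LPS to caspase-11, moved most: Gbp5 averaged 12.9, 550 and 25.0 CPM and Gbp2 48.2, 1109 and 99.3 CPM in control, LPS and dual-treated lungs. Zbp1, a sensor of Z-form nucleic acid, averaged 6.18, 139 and 70.2 CPM, and Txnip, a regulator of thioredoxin, 668, 3302 and 537 CPM. P2rx7, the ATP receptor that lets potassium leave the cell, ran opposite to them at 30.8, 8.87 and 26.7 CPM. The other genes called lower after LPS and higher in dual-treated lungs than in LPS lungs, named outside that rule after their values were seen, were the potassium channel gene Kcnk6 (27.0, 11.0 and 25.4 CPM) and Tlr4, the surface receptor for LPS (15.6, 11.8 and 19.9 CPM). The Tlr4 call after LPS (log2FC -0.40) was lost with DESeq2 (-0.37), with RLE factors (-0.37), with LPS mouse 1 alone (-0.57) and without control mouse 1 (-0.34), control mouse 2 (-0.47), control mouse 4 (-0.41), LPS mouse 1 (-0.32) or LPS mouse 7 (-0.39), and its call against LPS (0.75) without dual-treated mouse 2 (0.51). Against control, 5 of 11 were called higher in dual-treated lungs and 1 of 11 lower, against 9.13% and 7.02% of all tested genes, with log2FC of 3.50 for Zbp1, 1.04 for Gbp2, 0.96 for Gbp5 and 0.77 for Panx1, and the 1 of 11 called lower was Nek7, a partner of Nlrp3, likewise named after its values were seen, at 125, 203 and 94.7 CPM (log2FC -0.40). Nek7 lost that call without any 1 of the control or dual-treated mice (-0.33 to -0.55) and with scaling by library size alone (-0.36). In the same comparison Gbp5 lost its call without any 1 of the control or dual-treated mice except dual-treated mouse 5, Gbp2 without control mouse 1 (0.93), control mouse 2 (1.07) or dual-treated mouse 2 (0.63), and Panx1 without control mouse 2 (0.77), control mouse 4 (0.68) or dual-treated mouse 2 (0.73); Gbp5 fell to 0.35 without dual-treated mouse 2.

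Among the other caspases, Casp12 averaged 11.4, 21.3 and 13.1 CPM in control, LPS and dual-treated lungs, and was called higher after LPS and lower in dual-treated than in LPS lungs; the latter call was lost with scaling by library size alone (log2FC -0.38). Casp8, the initiator that links death receptors to the pathway, averaged 31.8, 38.5 and 50.7 CPM and was called higher in dual-treated lungs, against LPS (log2FC 0.40 ± 0.13 SE) and against control (0.67 ± 0.13). Its call against LPS was lost without LPS mouse 7 (0.31) or dual-treated mouse 2 (0.28), with LPS mouse 1 alone (0.25) and with only those 2 groups in the fit (0.38), and its call against control without dual-treated mouse 2 (0.55).

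Of 9 other gasdermins listed, 4 passed the filter and were called higher after LPS, against 32.6% of all tested genes. Gsdma, Gsdmc and Gsdmc4 passed it through the counts of the LPS group alone, so their direction was set by the filter and the count of 4 says little, and for Gsdma and Gsdmc the counts lay in LPS mice 6 and 7, the libraries high in squamous genes. DESeq2 called 3 of the 4 higher after LPS, without Gsdmc. In dual-treated lungs 0 of the 4 were called higher and 3 lower than in LPS lungs, against 31.7% and 27.4% of all tested genes. Against control 0 of the 4 were called by edgeR or DESeq2, and 1 was higher at an unadjusted p under 0.05. With the genes that passed through the LPS group left out, 1 gene, Gsdme, remained, called higher after LPS and not called between dual-treated and LPS lungs. Gsdma had 1, 73 and 217 counts in LPS mice 1, 6 and 7, none in any control mouse, and 1 and 0 counts in dual-treated mice. Gsdmc, named outside the rule for named genes after its values were seen, had 25 and 55 counts in LPS mice 6 and 7 and 0 in all 6 other mice. Gsdmc4, also named outside that rule, differed from them in being present in LPS mouse 1, with 35, 26 and 24 counts in LPS mice, at most 2 in control mice and 1 and 6 in dual-treated mice. Gsdme averaged 4.49 CPM in control, 7.14 CPM in LPS and 7.49 CPM in dual-treated lungs, and its rise after LPS (log2FC 0.67 ± 0.24 SE) was lost without any 1 of control mouse 1 (0.73), control mouse 2 (0.48), LPS mouse 6 (0.69) or LPS mouse 7 (0.54), with LPS mouse 1 alone (0.41) and with scaling by library size alone (0.39). Its exons share 3141 bp with Pals2 on the other strand, so its values carry the doubt given for Nlrc4. Gsdma2, Gsdmc2 and Gsdmc3 stood at 3 counts or fewer in every library, as did Nlrp9b among the sensors, and were not measured at this depth.

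Of 5 tested genes of membrane repair, which the ESCRT-III complex carries out by shedding damaged membrane, 4 were called higher and 1 lower after LPS, against 32.6% and 33.9% of all tested genes. In dual-treated lungs 0 of 5 were called against control by edgeR or DESeq2, and 1 was higher at an unadjusted p under 0.05. Of all tested genes 9.13% were called higher and 7.02% lower there by edgeR, so 0 of 5 lies near these shares. Chmp4b, which forms the ESCRT-III filament, averaged 201, 905 and 244 CPM in control, LPS and dual-treated lungs, a log2FC of 2.17 ± 0.18 SE after LPS and -1.89 ± 0.21 for dual treatment against LPS. Vps4b averaged 69.7, 123 and 73.0 CPM and Chmp2a 106, 164 and 138 CPM; the exons of Chmp2a share 2923 bp with Trim28 on the other strand, again with the strand setting unknown. Chmp3 was the exception that fell after LPS, at 129, 82.6 and 142 CPM. Vps4a, at 57.6, 71.0 and 59.5 CPM, was called lower in dual-treated than in LPS lungs (log2FC -0.25), but its call was lost without LPS mouse 1 (-0.23), LPS mouse 6 (-0.26) or dual-treated mouse 5 (-0.20), with no filter (-0.23), with a filter of 10 or more counts per library (-0.23) and with only those 2 groups in the fit (-0.27), and its difference was 0.07 with scaling by library size alone.

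Among the inhibitors, 4 of 5 rose after LPS, against 32.6% of all tested genes, and 5 of 5 were higher in dual-treated lungs than in control lungs, against 9.13%. In dual-treated lungs 1 of 5 was higher than in LPS lungs and 3 were lower, against 31.7% and 27.4%, with log2FC of -2.69 for Il1rn, -1.57 for Il1r2 and -1.56 for Il18bp. Il18bp, which encodes the soluble protein that binds interleukin-18, averaged 7.57, 52.0 and 17.6 CPM in control, LPS and dual-treated lungs, so it rose (log2FC 2.78 ± 0.21 SE) while Il18 itself was lower after LPS. Its rise against control in dual-treated lungs (1.22 ± 0.22) was lost without dual-treated mouse 2 (0.81). The decoy receptor Il1r2 averaged 1.67, 156 and 52.5 CPM, the receptor antagonist Il1rn 7.35, 122 and 18.9 CPM, and Trim30a 27.1, 86.1 and 64.0 CPM. Serpinb1a, which restrains caspases and neutrophil proteases, was higher in dual-treated (32.4 CPM) than in LPS lungs (21.5 CPM), a call lost without dual-treated mouse 5 (log2FC 0.47).

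Cytokines and receptors rose in 7 of 8 genes after LPS, against 32.6% of all tested genes, and were lower in 8 of 8 in dual-treated than in LPS lungs, against 27.4%. Without Ifng, which passed the filter through the LPS group alone, these were 6 of 7 and 7 of 7. Both comparisons share the LPS mice, and of all 6046 genes called higher after LPS 72.3% were called lower with the dual treatment. Il1b, the other main substrate of caspase-1, stood at 12.2, 10.7 and 9.79 CPM in control, 122, 105 and 90.8 CPM in LPS and 34.7 and 60.0 CPM in dual-treated lungs. Unlike Il18 it was highest in LPS lungs, and its dual-treated mice stayed above every control mouse (log2FC 2.12 ± 0.22 SE against control). Il18rap, a subunit of the interleukin-18 receptor, averaged 5.30, 90.1 and 17.3 CPM and Il1a 3.53, 16.5 and 5.39 CPM; the Il1a call of dual treatment against LPS (-1.61) was lost without dual-treated mouse 5 (-1.11) and was -2.44 without dual-treated mouse 2. Ifng, the interferon that interleukin-18 helps to induce, had at most 3 counts in control, 93, 41 and 8 counts in LPS and 0 and 5 counts in dual-treated lungs.

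Of 6 transcription factor genes known to control the pathway, 4 were called higher and 1 lower after LPS, against 32.6% and 33.9% of all tested genes, and 2 were higher and 4 lower in dual-treated than in LPS lungs, against 31.7% and 27.4%. Irf1 averaged 137, 879 and 115 CPM, Irf8 37.8, 171 and 49.3 CPM and Rela 120, 247 and 124 CPM in control, LPS and dual-treated lungs. Irf2, known as an activator of Gsdmd transcription, ran opposite at 61.4, 19.6 and 60.5 CPM.

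Promoter windows of 300 bases were taken from RefSeq (GRCm38.p6) for 8 of the 9 genes, 10 windows in all. The windows run from 250 before to 50 after a gene start of that source and were placed on GRCm39 by exact match. They were searched on both strands for GAAANNGAA, the core of the interferon-stimulated response element, for TTCNNNGAA, the gamma-activated site, and for the NF-kB site. These were held by 8.6%, 8.3% and 8.5%, respectively, of all 32851 windows of the same length. None of the 10 windows held either interferon-related motif. RefSeq starts can differ from the gene starts of the annotation used here. The Aim2 window (chr1:173247920-173248219) lies inside the gene, which starts at 173178445 there. The Il18 window (chr9:50465750-50466049) ends before the start of its gene at 50466081. A lack of matches for these genes concerns these windows only. The NF-kB site was matched in both windows of Casp4, which start 11 bases apart and hold the same matches, and in 1 of the 2 windows of Nlrp3, not in the other (chr11:59433262-59433561), and in no window of Nlrc4, Aim2, Pycard, Casp1, Ninj1 or Il18. A matching window of Casp4 and that of Nlrp3 are shown to let these matches be seen in place, with that of Pycard, the gene of the 9 with the largest log2FC of dual treatment against control, beside them. Capitals mark the NF-kB matches, of which the overlapping ones are joined, and a match describes letters in the window and not a bound site.
Casp4, chr9:5308599-5308898 (GRCm39, plus strand): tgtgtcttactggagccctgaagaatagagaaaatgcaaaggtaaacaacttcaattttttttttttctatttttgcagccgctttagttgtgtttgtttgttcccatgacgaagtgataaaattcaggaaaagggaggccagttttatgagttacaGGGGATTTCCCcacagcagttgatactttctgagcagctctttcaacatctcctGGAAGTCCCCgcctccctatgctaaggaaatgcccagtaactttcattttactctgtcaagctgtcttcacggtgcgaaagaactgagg
Nlrp3, chr11:59432145-59432444 (GRCm39, plus strand): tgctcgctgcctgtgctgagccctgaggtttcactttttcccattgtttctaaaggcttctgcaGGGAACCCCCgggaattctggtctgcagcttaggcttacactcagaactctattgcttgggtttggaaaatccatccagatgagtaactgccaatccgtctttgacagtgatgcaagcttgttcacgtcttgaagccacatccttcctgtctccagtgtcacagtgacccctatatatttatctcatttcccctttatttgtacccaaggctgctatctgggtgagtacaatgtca
Pycard, chr7:127592990-127593289 (GRCm39, minus strand): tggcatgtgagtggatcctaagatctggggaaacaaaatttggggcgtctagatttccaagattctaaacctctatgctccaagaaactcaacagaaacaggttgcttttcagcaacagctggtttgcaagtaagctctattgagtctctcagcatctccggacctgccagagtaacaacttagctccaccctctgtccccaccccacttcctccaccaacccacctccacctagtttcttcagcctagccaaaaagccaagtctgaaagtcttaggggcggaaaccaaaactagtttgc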

How the data were processed

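The authors trimmed the reads with Trim Galore after quality checks with FastQC 0.11.9, mapped them to GRCm39 with HISAT2 2.2.1 and counted them per gene with featureCounts 2.0.1; the raw counts they deposited for each mouse, without normalization, were used. The annotation release, the strand setting and the treatment of reads that map to several places are not given in the sources used here. Versions are from the submitters' processing notes. The authors tested with DESeq2. Of the 55416 identifiers, 54749 were found in GENCODE M39 (GRCm39), the source of symbols, exon lengths and coordinates, and the others held 0.0533% of the counts.

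Tests were run in edgeR 4.0.16 under R 4.3.3: filterByExpr by group, TMM normalization, and 1 quasi-likelihood fit of 8 libraries with a group factor (5 residual degrees of freedom). Adjusted p-values are Benjamini-Hochberg over the 18560 tested genes, and the SE is the size of the log2FC divided by the square root of its F statistic. These steps were tried on simulated data for each comparison with 200 of 18560 genes changed by 2 on the log2 scale. Of the changed genes, 91% were recovered for LPS against control, 87% for dual treatment against LPS and 87.5% for dual treatment against control. With so few genes changed, the simulation cannot test the scaling of the real data, where 32.6% of genes were called higher and 33.9% lower after LPS. The 9 genes are named in full. Of the wider lists, up to 4 called genes per role and comparison with the largest changes and a mean of at least 1 CPM are named, with genes at 3 counts or fewer in all libraries. The 9 genes and all lists were chosen with earlier results of these data known. Alternatives were DESeq2 1.42.0, library size or RLE scaling, no filter or at least 10 counts in every library, only the compared groups, the study's rule of a fold over 2 with a p under 0.05, leaving out each mouse, LPS mouse 1 alone, other transcript lengths, and leaving out of the counts the genes that reach the CPM cutoff of the filter in fewer than 2 libraries outside 1 of the compared groups. The study used its rule with DESeq2 and does not say whether its p was adjusted. Here the rule was applied to the edgeR fit with the unadjusted p.

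Results for a few single genes outside the 9 are not reported here, so the named genes are fewer than the rule for named genes gives and 1 list of nearest genes is not complete; the counts per list include every gene of the list.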

Additional observations from a re-analysis of the deposited data

How the results depend on the processing

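No paired analysis was made, because the methods describe mice divided at random into the groups and give no pairing between them. For the 9 genes, 310 of the alternative values kept direction and side of the threshold, 36 lost their call, 4 gained one and 1 reversed; for the wider genes named by rule 851 kept both, 62 lost their call and 1 reversed. Those reversals were Il18 for dual treatment against control which without 1 mouse ran from a log2FC of -0.0254 (without dual-treated mouse 5) to 0.45 (without dual-treated mouse 2) and was not called, and Vps4a for dual treatment against LPS with library size scaling (0.0742). Of the 6 genes named outside the rule, which these counts leave out, Nlrp1b (from 0.54 to -0.22) and Gsdmc4 (from 1.22 to -0.45) reversed for dual treatment against control without dual-treated mouse 5 and were not called, and Tlr4, Nek7 and Gsdmc lost calls. Library size scaling moved the median log2FC of all genes to -0.29 for LPS against control and 0.38 for dual treatment against LPS, and values under it are to be read against those medians. It called 3 of the 9 genes lower after LPS (1 with TMM), along with 7832 of all 18560 tested genes (6300 with TMM). For dual treatment against LPS it called 3 of the 9 genes lower (5 with TMM), along with 3225 of all tested genes (5085 with TMM). Against control it called 0 wider genes lower (1 with TMM). The study's rule, which by its construction drops changes under a fold of 2, called 0 of the 9 genes lower after LPS, 2 higher and 2 lower for dual treatment against LPS, and 4 higher against control. Under it 9 wider genes were higher than in LPS and 0 lower than in control, and of all genes 3401 were higher and 4049 lower after LPS, 3826 higher and 2728 lower for dual treatment against LPS, and 637 lower against control. With LPS mouse 1 alone, 0 of the 9 genes were lower after LPS and 3 were lower for dual treatment against LPS. Leaving out 1 mouse at a time, where, as with LPS mouse 1 alone, a group left with 1 mouse is assumed to vary like the others, called 0 to 1 of the 9 genes lower after LPS, 2 to 5 lower for dual treatment against LPS and 4 to 6 higher against control. It gave 10 to 16 wider genes higher and 0 to 1 lower, and 790 to 1700 of all genes higher and 430 to 1525 lower, against control. The cause of these shifts was not tested. Groups of 2 and 3 mice limit every comparison, and genes at 3 counts or fewer in every library were not measurable at this depth.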
